A study of Mus musculus with 38 samples.

Results

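The genes of the mouse mitochondrial genome were taken as every gene whose symbol begins with mt-. These were 37 of the 47729 genes in the whole marrow table and of the 46679 genes in the precursor table: 13 protein genes, 2 rRNA genes and 22 tRNA genes. RNA was sequenced from bone marrow of female C57BL/6J mice aged 6 to 7 weeks. Marrow came from mice left untreated (2 libraries, replicates 1 and 2), from mice given the bisphosphonate zoledronic acid (ZA, 100 µg/kg, 2 libraries, replicates 2 and 3), from mice given human granulocyte colony-stimulating factor made by recombinant means (G-CSF, 50 µg/kg each day for 3 days, 3 libraries) and from mice given both, with G-CSF begun 2 days after ZA (combined, 2 libraries, replicates 1 and 3). All injections were intraperitoneal. ZA is taken up by bone and acts on bone-resorbing osteoclasts, and G-CSF drives the production and release of neutrophils. Lineage- CD115+ cells, sorted as myeloid and osteoclast precursors, were sequenced in 2 runs. The 8 precursor libraries of run 1 are used here: 1 untreated, 1 ZA, 3 G-CSF and 3 combined.

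The mitochondrial genome is a small circle present in many copies per cell. Each of its strands is transcribed from end to end into a long precursor RNA, and the tRNAs that punctuate the genes are cut out to release the rRNAs and mRNAs between them. The proteins it encodes are membrane subunits of the respiratory chain and ATP synthase, which are completed by subunits from nuclear genes. The rRNAs and tRNAs serve the ribosomes that translate these mRNAs inside the organelle. Mature red cells lose their mitochondria, and neutrophils hold few active ones.

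Parts of the mitochondrial sequence also lie in the nuclear genome, and these copies bear on which gene a read is assigned to. A search of the annotated nuclear transcripts against the mitochondrial protein and rRNA genes found 15 copies at 90% identity or more over at least 200 bases. Of these, 7 form a single block on chromosome 1 (mm10, chr1:24611535-24616197), and 5 were identical to the mitochondrial gene along their whole aligned length. The first 80 bases of mt-Co2 are shown with the same stretch of Gm28661, which is identical, and of Gm13341 on chromosome 2, which is not. mt-Co2 encodes subunit 2 of cytochrome c oxidase and lies at chrM:7013-7696, and the stretch shown is chrM:7013-7092 (mm10). Capitals mark the bases at which Gm13341 differs from mt-Co2.
mt-Co2: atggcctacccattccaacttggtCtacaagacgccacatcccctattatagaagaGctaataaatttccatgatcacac
Gm28661: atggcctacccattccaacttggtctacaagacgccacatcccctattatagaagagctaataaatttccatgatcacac
Gm13341: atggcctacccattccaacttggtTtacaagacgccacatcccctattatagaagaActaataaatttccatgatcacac

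A read from the first 80 bases of mt-Co2 thus carries nothing that tells it from Gm28661. Gm28661 matched mt-Co2 over 681 bases at 100% identity. Gm10925 matched mt-Atp6 over 678 bases, Gm28437 matched mt-Co3 over 783 bases and Gm28439 matched mt-Nd4 over 876 bases, each at 100%. Gm28438 and Gm29216 differ from mt-Nd3 and mt-Co1 by 1 base each over the aligned 345 and 483 bases. Those bases are shown in capitals, at chrM:9459-9491 for mt-Nd3 and chrM:6390-6423 for mt-Co1.
mt-Nd3: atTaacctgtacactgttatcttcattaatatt
Gm28438: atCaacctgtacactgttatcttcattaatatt
mt-Co1: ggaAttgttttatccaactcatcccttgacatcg
Gm29216: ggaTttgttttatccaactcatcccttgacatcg

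Mitochondrial genes also overlap each other. mt-Atp8 and mt-Atp6, which encode membrane subunits of ATP synthase, share 43 bases on the same strand, shown in capitals within chrM:7907-7989.
mt-Atp8 to mt-Atp6: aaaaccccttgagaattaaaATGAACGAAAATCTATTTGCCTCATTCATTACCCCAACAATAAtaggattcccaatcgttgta

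Total estimated counts ran from 6.24 M to 16.2 M over the whole marrow libraries and from 21.0 M to 33.2 M over the run 1 precursor libraries. Levels are in CPM, a gene's counts relative to library size, after TMM scaling, which sets libraries level by the bulk of genes. Changes are log2 fold changes ± SE from edgeR's quasi-likelihood test, and a gene was called where its Benjamini-Hochberg adjusted p over all genes tested was under 0.05. The labels number biological replicates and say nothing of separate animals. Each p-value therefore reflects only how far libraries of a group lay apart, which may be technical. A fall in marrow may mean fewer cells of a type or less RNA per cell, which cannot be told apart. Untreated replicate 1 stood apart: annotated small RNA genes took 37.6% of its TPM (a share of transcripts that also allows for gene length) and 6.39% to 12.1% of the other marrow libraries', and its TMM factor was 0.709, the lowest of the marrow libraries. In addition, 61 genes were on in all 5 marrow libraries given G-CSF and off in the other 4, or the reverse, and a difference between those sets of libraries other than treatment cannot be told apart from it. Markers of other cells moved with the groups. Erythroid markers summed to 304055 to 416815 CPM in untreated marrow, 255701 to 303468 with ZA, 152833 to 203349 with G-CSF and 105199 to 119318 with both, and with G-CSF alone 7 of 11 tested fell. Summed megakaryocyte and platelet markers were 225 and 524 CPM in untreated marrow, 170 and 1053 with ZA, 1481 to 1983 with G-CSF and 1387 and 2067 with both, and 1 of 12 rose with G-CSF. Neutrophil markers summed to 32588 to 35055 CPM in untreated, 37686 to 38013 in ZA, 25032 to 35417 in G-CSF and 20151 to 20833 in combined marrow, and 3 of 10 fell in combined against untreated marrow. Skeletal muscle markers, which belong to no marrow cell, summed to 11.6 and 13.2 CPM in untreated, 16.3 and 22.6 in ZA, 33.2 to 61.0 in G-CSF and 183 and 363 in combined marrow, with 6 of 11 tested higher with G-CSF and 10 of 11 in combined than in untreated. Precursor and myeloid receptor markers summed to 597 and 856 CPM in untreated, 568 and 574 in ZA, 362 to 392 in G-CSF and 372 and 409 in combined marrow, and 4 of 10 fell with G-CSF. T cell markers summed to 69.0 and 97.0 CPM in untreated, 45.5 and 51.0 in ZA, 51.9 to 95.6 in G-CSF and 42.0 and 76.5 in combined marrow, and with G-CSF 4 of 8 fell and 1 rose. B cell markers summed to 668 to 1018 CPM over all 9 libraries, and 1 of 8 fell with G-CSF. The part of these cell types in the mitochondrial results was not tested.

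The copies took a large share of the reads of mt-Co2 and mt-Atp6, and that share differed between libraries. In the 4 marrow libraries without G-CSF, 21.2%, 23.9%, 29.3% and 25.7% of the counts of mt-Co2 and its copies were assigned to mt-Co2 itself. With G-CSF alone this was 54.1%, 83.6% and 79.7%, and with both agents 83.2% and 83.1%. No library given G-CSF overlapped those without it. For mt-Atp6 the shares were 26.1%, 27.2%, 31.5% and 25.3% without G-CSF, 38.6%, 65.6% and 57.3% with it and 57.1% and 57.5% with both. In the precursors they were 20.7% to 28.8% for mt-Co2 and 27.4% to 48.6% for mt-Atp6.

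**Figure D1:**
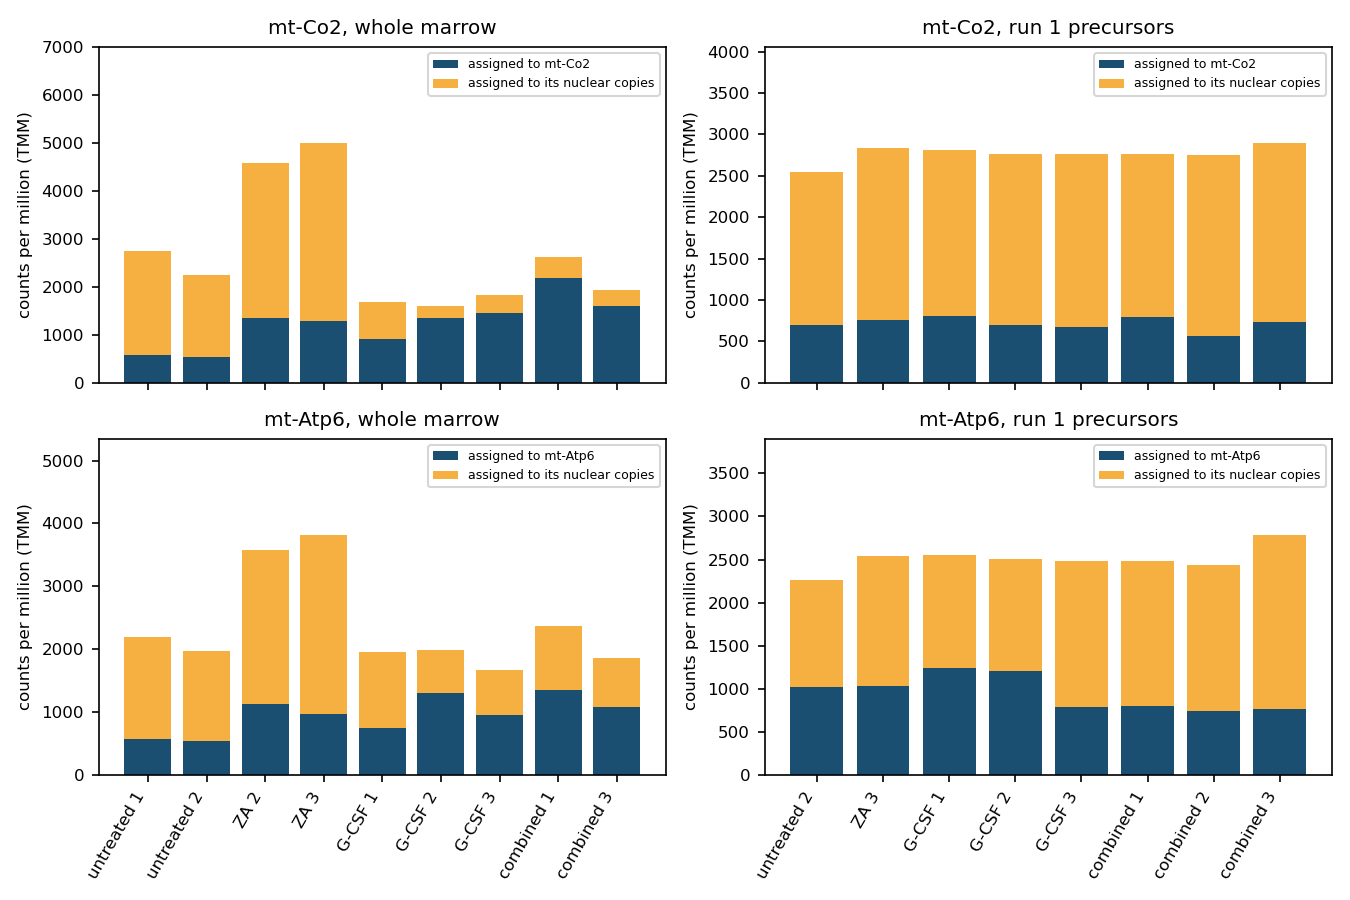
Estimated counts in CPM (TMM scaling) of mt-Co2 and mt-Atp6, split into counts assigned to the mitochondrial gene and to its nuclear copies, in each of the 9 marrow and 8 run 1 precursor libraries. The mt-Co2 part is under 30% in marrow without G-CSF and 54.1% or more in marrow with it.

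As deposited, mt-Co2 stood at 583 and 539 CPM in untreated, 1346 and 1284 in ZA, 914, 1349 and 1463 in G-CSF and 2191 and 1601 in combined marrow. Its identical copy Gm28661 went the other way under G-CSF, at 2171 and 1719 CPM in untreated, 774, 264 and 371 in G-CSF and 442 and 325 in combined marrow. With the copies' counts added, mt-Co2 stood at 2755 and 2258 CPM in untreated, 4593 and 5002 in ZA, 1688, 1614 and 1834 in G-CSF and 2633 and 1927 in combined marrow. The G-CSF libraries thus lay above the untreated ones before the copies were added and below them after. The change of mt-Co2 with G-CSF was 1.15 ± 0.23 as deposited (edgeR adjusted p = 0.0123) and -0.55 ± 0.17 with copies added (edgeR adjusted p = 0.0662). For mt-Atp6 it was 0.86 ± 0.23 (edgeR adjusted p = 0.0412) and -0.15 ± 0.16 (edgeR adjusted p = 0.559). Of the 6 most abundant copies, 2 were called lower with G-CSF as deposited, Gm28661 at -2.05 ± 0.39 (edgeR adjusted p = 0.013) and Gm28437, the copy of mt-Co3, at -7.83 ± 0.83 (edgeR adjusted p = 0.00152). Gm10925 was at -0.82 ± 0.25 (edgeR adjusted p = 0.0591), Gm28438 at -0.54 ± 0.43 (edgeR adjusted p = 0.449) and Gm29216 at -0.08 ± 0.23 (edgeR adjusted p = 0.849). Gm28437 stood at 463 and 178 CPM in untreated marrow and at 3.42 or less in each G-CSF library. The protein genes are therefore given with the copies' counts added, and the calls as deposited are named where they differ.

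Against untreated marrow, G-CSF alone lowered 6 of the 13 protein genes and raised 0, where 4.90% of all 14778 genes tested with the copies added were called higher and 6.92% lower. These were mt-Nd5, mt-Nd4l, mt-Nd4 and mt-Nd2, subunits of complex I, which takes electrons from NADH, mt-Co1, the catalytic subunit of cytochrome c oxidase, and mt-Cytb, the cytochrome of complex III. The median of the 13 was -0.56 against 0.02 over all genes, and all 13 estimates were negative with TMM scaling, but 5 of 13 were positive when libraries were scaled by total counts, where the median of all genes moved to 0.44. All 13 lay below that median of all genes under either scaling. As deposited, 2 rose (mt-Co2 and mt-Atp6) and 5 fell (the 6 above without mt-Nd4), against 4.93% of 14737 genes higher and 6.91% lower. On the TPM scale 10 of 13 changes as deposited were positive (median 0.34, against 0.52 over all genes), and 8 of 13 lay below the median of all genes.

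mt-Nd5 had the largest fall of the protein genes. It stood at 673 and 826 CPM in untreated marrow, 749 ± 108 (SD, n = 2). The G-CSF libraries held 265, 322 and 279 CPM, 289 ± 29.8 (SD, n = 3). The highest of them lay well below the lower untreated value. The change was -1.38 ± 0.18 (edgeR adjusted p = 0.00187), and it was called without each of the 9 libraries in turn. mt-Nd4l, a small core subunit of complex I, held 118 and 144 CPM in untreated and 47.1, 61.4 and 58.2 with G-CSF, a change of -1.24 ± 0.22 (edgeR adjusted p = 0.00879). Its call was lost only without untreated replicate 2 (adjusted p = 0.062).

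The other called genes moved less. mt-Co1 held 5990 and 5631 CPM in untreated marrow and 3357, 3436 and 3487 with G-CSF, and fell by 0.76 ± 0.17 (edgeR adjusted p = 0.0211). mt-Cytb held 1649 and 1367 CPM in untreated and 795, 788 and 944 with G-CSF, and fell by 0.84 ± 0.19 (edgeR adjusted p = 0.0238). mt-Nd2 fell by 0.60 ± 0.15 (edgeR adjusted p = 0.0368) and mt-Nd4 by 0.72 ± 0.20 (edgeR adjusted p = 0.046). In all 4 the untreated and G-CSF libraries did not overlap. With the G-CSF libraries below, this was so for 9 of the 13 genes and for 21.4% of all genes tested with the copies added. The other 7 changes ran from -0.56 for mt-Nd3, a complex I subunit of which 2.6% to 22.5% of marrow counts fell on the gene and not its copy, to -0.15 for mt-Atp6. mt-Nd6, the only protein gene on the light-strand transcript, was at -0.22 ± 0.18 (edgeR adjusted p = 0.46). Without untreated replicate 1, G-CSF replicate 1 or G-CSF replicate 2, 2 of the 13 were called lower, and without untreated replicate 2, 1 was. With total counts as library size 1 was called lower as deposited, where 3.56% of all genes were.

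**Figure D2:**
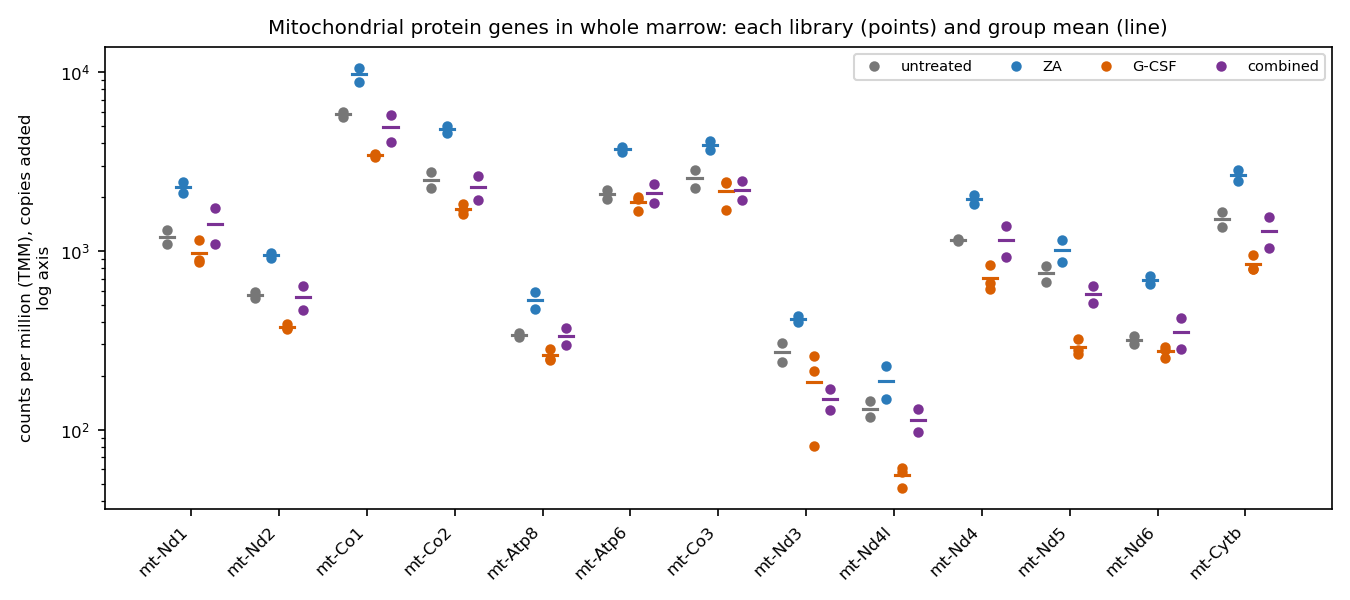
Levels in CPM (TMM scaling, log axis) of the 13 mitochondrial protein genes with nuclear copies added, in each whole marrow library. Points are libraries and lines are group means. ZA libraries lie above untreated ones for each gene, and the G-CSF libraries of mt-Nd5 lie between 265 and 322.

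ZA alone moved no mitochondrial gene past the threshold, though all 13 protein genes had positive changes. With edgeR 0 of 13 were called, where 0.00679% of the genes tested were called higher and 0.0271% lower (0.00677% and 0.0271% with copies added). At an unadjusted p under 0.05 there were 10 of 13 as deposited, against 9.47% of all genes. DESeq2 called 7 higher, where it called 0.360% of all genes higher, and limma on log2(TPM + 1) called 0. With copies added the median was 0.74, against 0.01 over all genes, with a range from 0.43 for mt-Nd5 to 1.10 for mt-Nd6. All 13 were positive with TMM, RLE, total counts and TPM as deposited, and 7 of 13 when the 13 genes' own total was the library size, which centres them by construction. Both ZA libraries lay above both untreated ones for 13 of 13 genes, of which 0 were called, and for 19.4% of all genes tested. Without untreated replicate 1 the median with copies added was 0.79 and all 13 were positive.

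mt-Nd6, a membrane subunit of complex I, held 336 and 302 CPM in untreated and 650 and 720 in ZA marrow, and the groups did not overlap. Its change of 1.10 ± 0.20 had the smallest adjusted p of the 13 (edgeR adjusted p = 0.189). mt-Nd1, another complex I membrane subunit, held 1307 and 1086 CPM in untreated and 2116 and 2434 in ZA marrow (0.93 ± 0.24, edgeR adjusted p = 0.33). mt-Co1 held 8857 and 10543 CPM in ZA marrow (0.74 ± 0.19, edgeR adjusted p = 0.33). mt-Co3, subunit 3 of cytochrome c oxidase, held 2848 and 2240 CPM in untreated and 3648 and 4140 in ZA marrow (0.61 ± 0.22, edgeR adjusted p = 0.476). mt-Atp8 held 346 and 330 CPM in untreated and 473 and 591 in ZA marrow (0.65 ± 0.17, edgeR adjusted p = 0.338).

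With both agents the protein genes lay near untreated marrow and below ZA marrow. The comparisons of combined marrow use the untreated, ZA and G-CSF libraries already described, so they are not independent of the results for each agent alone. Against untreated, 0 of 13 were called with copies added, where 3.13% of genes were called higher and 4.53% lower, and the median was -0.14, or 0.02 without untreated replicate 1. As deposited 2 rose, mt-Co2 by 1.76 ± 0.24 (edgeR adjusted p = 0.00347) and mt-Atp6 by 1.13 ± 0.25 (edgeR adjusted p = 0.027), with 3.17% of all genes called higher and 4.55% lower. With copies added these were -0.14 ± 0.19 (edgeR adjusted p = 0.694) and 0.03 ± 0.17 (edgeR adjusted p = 0.947). Scaled by total counts, 6 of 13 as deposited were called higher, where 25.1% of all genes were. As deposited, 2 of 13 had an unadjusted p under 0.05 in edgeR, against 24.8% of all genes. DESeq2 called 2 higher, where it called 4.87% of all genes higher. Limma on log2(TPM + 1) called 9 higher, where it called 40.4% of all genes higher and the median of all genes was 0.79.

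Against ZA, 6 of 13 fell with copies added and 0 rose, where 1.86% of genes were called higher and 2.44% lower. As deposited 4 fell (mt-Nd2, mt-Co1, mt-Nd6 and mt-Cytb), with 1.87% of genes higher and 2.46% lower. mt-Co2, at 4593 and 5002 CPM in ZA and 2633 and 1927 in combined marrow, fell by 1.07 ± 0.19 (edgeR adjusted p = 0.0145) with copies added, but was at 0.53 ± 0.24 as deposited (edgeR adjusted p = 0.297). mt-Cytb held 2448 and 2838 CPM in ZA and 1555 and 1039 in combined marrow, and fell by 1.03 ± 0.22 (edgeR adjusted p = 0.031). mt-Co1 fell by 0.98 ± 0.19 (edgeR adjusted p = 0.0222), from 8857 and 10543 to 5740 and 4086 CPM. mt-Nd6 fell by 0.96 ± 0.20 (edgeR adjusted p = 0.0289), mt-Atp6 by 0.81 ± 0.17 (edgeR adjusted p = 0.0348) and mt-Nd2 by 0.78 ± 0.17 (edgeR adjusted p = 0.0374).

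Both combined libraries lay below both ZA libraries for 13 of 13 genes with copies added and for 26.6% of all genes tested. All 13 changes were negative with TMM and with total counts, but 5 of 13 as deposited were positive on the TPM scale. The median was -0.83 against -0.01 over all genes. Without combined replicate 3, ZA replicate 2 or ZA replicate 3, 0 of 13 were called, without G-CSF replicate 2 only 1 was, and without G-CSF replicate 1 there were 2. With total counts as library size 0 were called, and the median of all genes moved to 0.40.

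Against G-CSF alone, 12 of 13 changes in combined marrow were positive and 0 were called, where 0.00679% of genes were called higher and 0% lower (0.00677% and 0% with copies added). At an unadjusted p under 0.05 there were 9 of 13 as deposited, against 10.4% of all genes. DESeq2 called 4 higher, where it called 0.645% of all genes higher, and limma called 0. mt-Nd5 held 633 and 508 CPM in combined marrow, above each G-CSF library (0.98 ± 0.18, edgeR adjusted p = 0.173). mt-Nd4l held 130 and 96.8 CPM (1.03 ± 0.22, edgeR adjusted p = 0.23). The test of whether the change with G-CSF differed between marrow with and without ZA called 0 of 13, with 0.00679% of genes called higher and 0% lower. There 2 of 13 had an unadjusted p under 0.05, against 11.8% of all genes, DESeq2 and limma called 0 protein genes, and the smallest adjusted p was 0.361.

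**Figure D3:**
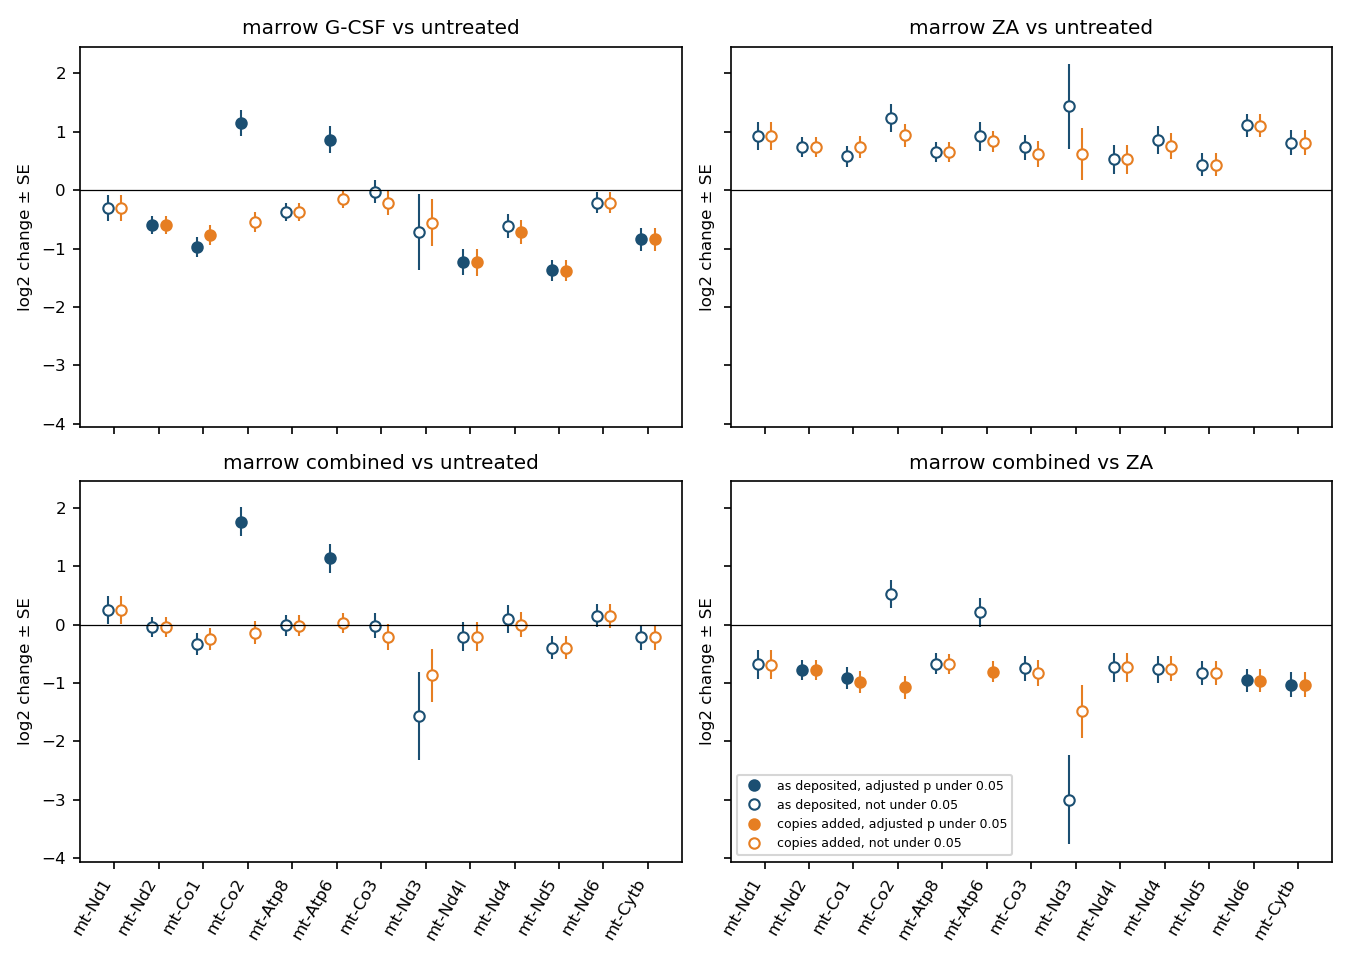
Change (log2 fold change ± SE) of the 13 protein genes in 4 marrow comparisons, as deposited and with nuclear copies added. Filled points have an edgeR adjusted p under 0.05. mt-Co2 and mt-Atp6 move from above 0 to below it under G-CSF when the copies are added, at 1.15 and 0.86 as deposited and -0.55 and -0.15 with copies.

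The share of all counts in the 13 protein genes sets libraries level by their totals, the scaling under which the median of all genes moved to 0.44 with G-CSF and 0.59 with both agents against untreated marrow. The share was 1.03% and 1.21% in untreated, 1.90% and 2.40% in ZA, 1.01%, 1.20% and 1.24% in G-CSF and 2.06% and 1.55% in combined marrow. The 5 libraries given G-CSF (1.41% ± 0.413, SD) and the 4 others (1.63% ± 0.635, SD) overlapped, and did not differ past the threshold (exact two-sided permutation p = 0.556, smallest possible 0.00794). With copies added the means were 1.70% and 2.27% (exact permutation p = 0.238). Within each pair that differs by ZA, the libraries given ZA held the larger shares, 1.90% and 2.40% against 1.03% and 1.21% without G-CSF and 2.06% and 1.55% against 1.01% to 1.24% with it.

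By TPM, the protein genes kept much the same order across libraries. mt-Atp8 took 43.8% to 52.1% of the TPM of the 13 genes with copies added in marrow and 52.8% to 55.4% in precursors. mt-Co1 followed with 10.5% to 14.5% in marrow and 8.7% to 9.7% in precursors. mt-Nd5, the longest protein gene at 1824 bases, took 0.3% to 0.8% in marrow and 0.8% to 1.0% in precursors and was the lowest. mt-Nd2 was the next lowest, at 0.9% to 1.1% in marrow and 1.0% to 1.1% in precursors. The TPM of mt-Atp8 rests on a gene of 204 bases that shares bases with mt-Atp6. In untreated marrow, as deposited, mt-Atp8 averaged 338 CPM and 9325 TPM, and mt-Atp6, of 681 bases, 552 CPM and 353 TPM. That gap is wider than their lengths give, so the order by TPM is not one of counts per base. For mt-Co1, adding the TPM of its copies moved the untreated mean from 1050 to 2195.

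Both rRNAs fell in marrow given G-CSF, alone or with ZA, against marrow without it. mt-Rnr1 and mt-Rnr2, the small and large subunit rRNAs of the mitochondrial ribosome, lie side by side at chrM:70-1024 and chrM:1094-2675, and no nuclear copy of either was found. mt-Rnr1 held 1298 and 612 CPM in untreated, 1147 and 1039 in ZA, 515, 490 and 358 in G-CSF and 394 and 338 in combined marrow. mt-Rnr2 held 3022 and 1652 CPM in untreated, 2817 and 2192 in ZA, 1090, 1102 and 621 in G-CSF and 727 and 616 in combined marrow. The lowest library without G-CSF, untreated replicate 2, was above the highest with it for both genes, as for 7.86% of all genes.

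Both rRNAs were called lower with G-CSF alone, where 6.91% of all genes were. mt-Rnr1 fell by 1.07 ± 0.29 (edgeR adjusted p = 0.0415) and mt-Rnr2 by 1.32 ± 0.31 (edgeR adjusted p = 0.0256). Combined marrow differed from untreated by -1.38 ± 0.32 (edgeR adjusted p = 0.0337) and -1.80 ± 0.35 (edgeR adjusted p = 0.0184), where 4.55% of all genes were called lower. It differed from ZA by -1.58 ± 0.32 (edgeR adjusted p = 0.0292) and -1.90 ± 0.35 (edgeR adjusted p = 0.0183), where 2.46% of all genes were called lower. With ZA alone the changes were 0.20 ± 0.32 and 0.10 ± 0.34, and neither was called nor had an unadjusted p under 0.05, by edgeR, and DESeq2 and limma also called 0. In combined against G-CSF marrow the changes were -0.31 and -0.48, with 0 of 2 called by edgeR, DESeq2 or limma and 0 at an unadjusted p under 0.05.

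In the 3 comparisons that were called, both changes were negative with TMM, RLE, total counts, TPM and the protein genes' total as library size, but their size depended on the scale. On log2(TPM + 1) limma called 0 of 2 in each. There mt-Rnr1 was at -0.13 with G-CSF, -0.09 in combined against untreated and -0.83 in combined against ZA marrow (limma adjusted p = 0.741, 0.827 and 0.137). mt-Rnr2 was at -0.44, -0.53 and -1.14 on that scale (limma adjusted p = 0.292, 0.194 and 0.0664), where the median of all genes was 0.52, 0.79 and 0.52. Scaled by total counts, mt-Rnr1 was at -0.59 with G-CSF and -0.72 in combined against untreated marrow, and was called in neither (edgeR adjusted p = 0.0677 and 0.05). The 2 untreated libraries lay far apart. Without untreated replicate 1 the G-CSF changes were -0.42 for mt-Rnr1 (edgeR adjusted p = 0.277) and -0.81 for mt-Rnr2 (edgeR adjusted p = 0.145), and those of combined against untreated marrow were -0.73 and -1.29 (edgeR adjusted p = 0.134 and 0.0757). The G-CSF call of mt-Rnr1 was lost without 8 of the 9 libraries in turn, all but untreated replicate 2, and that of mt-Rnr2 without 2, untreated replicate 1 and G-CSF replicate 1. In combined marrow the calls of both rRNAs, against untreated and against ZA, were lost without either combined library. Against untreated they were lost without 6 (mt-Rnr1) and 3 (mt-Rnr2) of the 9 libraries in turn, and against ZA without 5 and 3.

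The share of counts in the 2 rRNAs was 0.306% and 0.203% in untreated, 0.346% and 0.309% in ZA, 0.163%, 0.170% and 0.112% in G-CSF and 0.135% and 0.118% in combined marrow. The libraries given G-CSF averaged 0.140% ± 0.0261 (SD, n = 5) and the others 0.291% ± 0.0616 (SD, n = 4). They did not overlap (exact two-sided permutation p = 0.00794, the smallest this design can give). Separation of these libraries by itself gives a p at or near that limit. On CPM, 7.86% of all genes were separated with the G-CSF libraries lower, and the share on percent of counts was not computed. The share test was planned for the protein genes only. The ratio of protein gene counts, copies added, to rRNA counts is set side by side between libraries only, since counts are not per length. It ran from 4.69 to 10.8 without G-CSF and from 8.19 to 18.0 with it. Whether the libraries were made from poly(A) RNA or by removing rRNA is not given in the sources used here, and either step acts on rRNA levels.

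**Figure D4:**
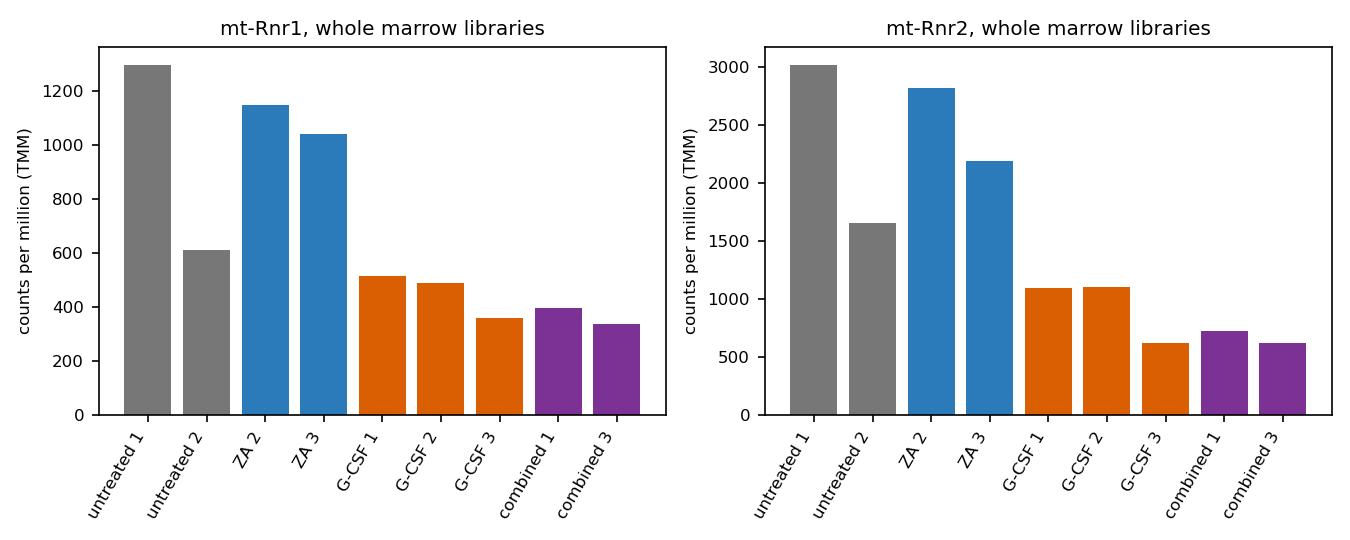
Levels in CPM (TMM scaling) of mt-Rnr1 and mt-Rnr2 in each whole marrow library, as bars from 0. Each library given G-CSF, alone or with ZA, lies below each library without it, and the untreated libraries of mt-Rnr1 stand at 1298 and 612.

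Few tRNA counts were recorded. Only 8 of the 22 tRNA genes passed the filter on low counts in marrow, and 13 had under 10 counts in every marrow library. The 2 tRNAs with the most counts, mt-Ts1 and mt-Te (for serine and glutamate), made up 67.6% to 89.2% of marrow tRNA counts. Both are encoded on the light-strand transcript, whose 8 tRNAs held 91.1% to 96.2% of marrow tRNA counts. The sequences of the 2 and of mt-Tl1, the leucine tRNA that follows mt-Rnr2, are shown because they had the most counts of each strand, at chrM:6870-6938 and chrM:14071-14139 on the minus strand and chrM:2676-2750 on the plus strand.
mt-Ts1: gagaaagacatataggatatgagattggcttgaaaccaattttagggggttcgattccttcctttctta
mt-Te: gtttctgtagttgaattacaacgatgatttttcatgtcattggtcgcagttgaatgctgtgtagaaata
mt-Tl1: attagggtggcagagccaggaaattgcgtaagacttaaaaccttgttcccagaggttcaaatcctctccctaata

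mt-Ts1 lies between mt-Co1 and mt-Co2, and mt-Te between mt-Nd6 and mt-Cytb, on the strand opposite to the mRNAs mt-Co1, mt-Co2 and mt-Cytb. Whether counting used strand is not given in the sources used here, so reads from these tRNAs and from RNA of the opposite strand cannot be told apart. mt-Ts1 held 79.8 and 59.5 CPM in untreated, 177 and 159 in ZA, 87.5, 84.1 and 90.3 in G-CSF and 111 and 76.1 in combined marrow. mt-Te held 16.9 and 15.01 CPM in untreated, 40.5 and 33.6 in ZA, 16.2, 21.2 and 13.7 in G-CSF and 19.7 and 16.4 in combined marrow. Both ZA libraries lay above both untreated ones for these 2 tRNAs, as for 19.4% of all genes tested with copies added. With ZA the changes of mt-Ts1 and mt-Te were 1.27 ± 0.22 (edgeR adjusted p = 0.17) and 1.21 ± 0.25 (edgeR adjusted p = 0.242). None of the 8 tested was called with ZA by edgeR or limma. DESeq2 called these 2 higher, where it called 0.360% of all genes higher. Of the 8, 2 had an unadjusted edgeR p under 0.05, against 9.47% of all genes.

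With G-CSF alone 4 of the 8 tested tRNAs fell, where 6.91% of all genes were called lower. mt-Ta (alanine) fell by 2.28 ± 0.62 (edgeR adjusted p = 0.0442), from 5.93 and 5.06 CPM to 1.46, 1.59 and 0.288. mt-Tc (cysteine) fell by 2.34 ± 0.60 (edgeR adjusted p = 0.0349) and mt-Tn (asparagine), which lies next to mt-Ta, by 1.82 ± 0.47 (edgeR adjusted p = 0.036). mt-Tp (proline), which borders the control region, fell by 1.09 ± 0.30 (edgeR adjusted p = 0.0482). mt-Ta, mt-Tn and mt-Tc lie in a cluster between mt-Nd2 and mt-Co1. All 3 were also lower in combined than in untreated marrow, where 4.55% of all genes were. The changes were -3.67 ± 0.80 for mt-Ta (edgeR adjusted p = 0.0264), -3.16 ± 0.59 for mt-Tn (edgeR adjusted p = 0.0138) and -3.53 ± 0.75 for mt-Tc (edgeR adjusted p = 0.0247). In combined marrow these 3 averaged 0.41, 0.68 and 0.68 CPM, and passed the low-count filter only through libraries where they were higher. The filter thus favoured falls in combined marrow for these 3, and the share over all genes is not a like measure.

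Combined marrow against ZA had 2 of 8 lower, against 2.46% of all genes: mt-Tn by 2.68 ± 0.58 (edgeR adjusted p = 0.034) and mt-Te by 1.04 ± 0.25 (edgeR adjusted p = 0.0493). mt-Tn averaged 0.68 CPM in combined and 4.47 in ZA marrow. The filter favoured its fall here too, so that share is not a like measure for mt-Tn. Against G-CSF alone 0 of 8 were called by edgeR, DESeq2 or limma. There 2 had an unadjusted edgeR p under 0.05, against 10.4% of all genes. mt-Tl1 held 2.86 and 6.28 CPM in untreated and 7.46 and 7.46 in combined marrow and was called in no marrow comparison. These levels rest on few counts. Each tRNA call in marrow was lost without 1 or more libraries, and that of mt-Tp with G-CSF without each of the 9 in turn.

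In the run 1 precursors no mitochondrial gene was called between treatments, and the protein genes with copies added lay close to level. With edgeR 0 of 18779 genes were called in combined against G-CSF precursors, 0% higher and 0% lower, with 6.95% of genes at an unadjusted p under 0.05. The same held for the 6 libraries given G-CSF against the 2 without it, 0% higher and 0% lower, with 3.63% of genes at an unadjusted p under 0.05. DESeq2 and limma on log2(TPM + 1) also called 0 of the 13 protein, 2 rRNA and 17 tRNA genes tested in either. Of the 13 protein genes 2 and 1 had an unadjusted p under 0.05. The medians with copies added were 0.07 and 0.07. As deposited mt-Atp6 was at -0.49 ± 0.16 in combined against G-CSF precursors (edgeR adjusted p = 0.691). The tRNAs spread more widely. The 17 of 22 tested ran from -1.23 for mt-Ti to 2.07 for mt-Th (histidine) in combined against G-CSF precursors, with 1 at an unadjusted p under 0.05, and from -0.39 to 0.97 with against without G-CSF, with 0. mt-Ts1, the tRNA with the most counts, was at 0.07 ± 0.08 in combined against G-CSF (edgeR adjusted p = 0.886). Erythroid markers summed to 191 to 975 CPM in G-CSF and 840 to 6921 CPM in combined precursors, and their part in these values was not tested.

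mt-Nd5 with copies added held 1154 CPM in the untreated and 1214 in the ZA precursors, 1357, 1238 and 1113 in G-CSF and 1405, 1172 and 1570 in combined precursors. mt-Co1 held 6168 CPM in untreated, 6880 in ZA, 7280, 6807 and 6872 in G-CSF and 7387, 7038 and 7710 in combined precursors. The groups overlapped for mt-Nd5, and the combined libraries differed from G-CSF by 0.16 ± 0.12 and 0.08 ± 0.05. In combined against G-CSF precursors 12 of 13 changes were positive with copies added, but 0 of 13 as deposited were on the TPM scale. The SE was 0.12 or less for each of the 13 genes with copies added, against 0.15 to 0.41 in combined against G-CSF marrow.

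The 13 protein genes held 1.72% of counts in untreated, 1.86% in ZA, 1.95%, 1.82% and 1.73% in G-CSF and 1.79%, 1.79% and 1.96% in combined precursors. Combined and G-CSF averaged 1.85% ± 0.1001 and 1.83% ± 0.109 (SD, n = 3 each, exact two-sided permutation p = 0.9), in a design that cannot go below 0.1. The 6 libraries with G-CSF averaged 1.84% ± 0.0939 (SD) and the 2 without 1.79% ± 0.0986 (SD), with an exact two-sided permutation p = 0.607 (smallest possible 0.0357). mt-Rnr1 held 341 and 336 CPM in the untreated and ZA libraries, 322, 457 and 338 in G-CSF and 620, 316 and 395 in combined precursors. mt-Rnr2 held 661 and 724 CPM, 671, 900 and 647 and 1124, 630 and 806 in the same order. Combined replicate 1 was the highest for both rRNAs, and its small RNA genes took 41.2% of TPM, where the range over the other precursor libraries was 16.5% to 31.1%.

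Both rRNAs were lower in precursors than in whole marrow. The 5 run 1 precursor libraries not given both agents were compared with the 3 whole marrow libraries of run 1 (untreated, G-CSF and ZA replicate 2, the same libraries as in the marrow table), with treatment in the model. The sort held on markers: precursor and myeloid receptor genes summed to 2755 to 3149 CPM in precursors and 464 to 994 in marrow, neutrophil genes to 368 to 697 against 40643 to 46186 and erythroid genes to 164 to 1712 against 226808 to 390808. Of 17208 genes tested, 20.4% were higher in precursors and 23.3% lower (20.4% and 23.4% of 17200 with copies added). The rRNAs in precursors (untreated, ZA, then G-CSF) were 293, 289, 278, 393 and 290 CPM for mt-Rnr1 and 568, 623, 578, 772 and 555 for mt-Rnr2. In untreated, ZA and G-CSF marrow, in that order, they were 749, 1348 and 597 CPM and 2024, 3314 and 1345. Thus no precursor library reached the lowest marrow library, as for 23.4% of all genes. mt-Rnr1 was lower in precursors by 1.42 ± 0.25 (edgeR adjusted p = 0.00332) and mt-Rnr2 by 1.70 ± 0.25 (edgeR adjusted p = 0.00153), and both were called without each of the 8 libraries in turn. The size of the fall depended on the scale. In TPM, mt-Rnr1 averaged 267 in precursors and 408 in marrow, and mt-Rnr2 288 and 541, smaller fold differences than in CPM. On log2(TPM + 1) the median of all genes moved to 0.52. With run 2 libraries in place of those of run 1 the rRNA changes were 0.43 and 0.52, so the direction turned. However, only 10 of the 18 run 2 libraries were closest to a run 1 library of their own tissue.

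The protein genes differed less between precursors and marrow. With copies added 2 of 13 were lower, mt-Nd3 by 0.85 ± 0.17 (edgeR adjusted p = 0.00544) and mt-Co3 by 0.49 ± 0.14 (edgeR adjusted p = 0.0238), and 0 were higher. The calls turned with the scaling. With copies added and total counts as library size 4 were higher and 0 lower, where 44.8% of all genes were higher and 14.7% lower. On log2(TPM + 1) limma called 10 as deposited higher and 0 lower, where it called 53.9% of all genes higher and 12.1% lower. mt-Nd3 held 181 CPM in untreated, 181 in ZA and 182, 197 and 171 in G-CSF precursors, against 300.1, 485 and 267 in untreated, ZA and G-CSF marrow. Of these counts, on average 26.4% in precursors and 12.2% in marrow were assigned to mt-Nd3 itself. As deposited mt-Nd3 was at 0.43 and was not called (edgeR adjusted p = 0.413). As deposited mt-Co2 and mt-Co3 were lower, by 1.03 ± 0.22 (edgeR adjusted p = 0.00773) and 0.50 ± 0.13 (edgeR adjusted p = 0.0182). mt-Co2 with copies added was at -0.34 ± 0.24 (edgeR adjusted p = 0.296). Scaled by total counts 12 of 13 changes as deposited were positive, where the median of all genes moved to 0.65. mt-Nd5 was at 0.55 ± 0.30 (edgeR adjusted p = 0.177), with precursors between 955 and 1169 CPM and marrow at 1023, 1031 and 397.

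**Figure D5:**
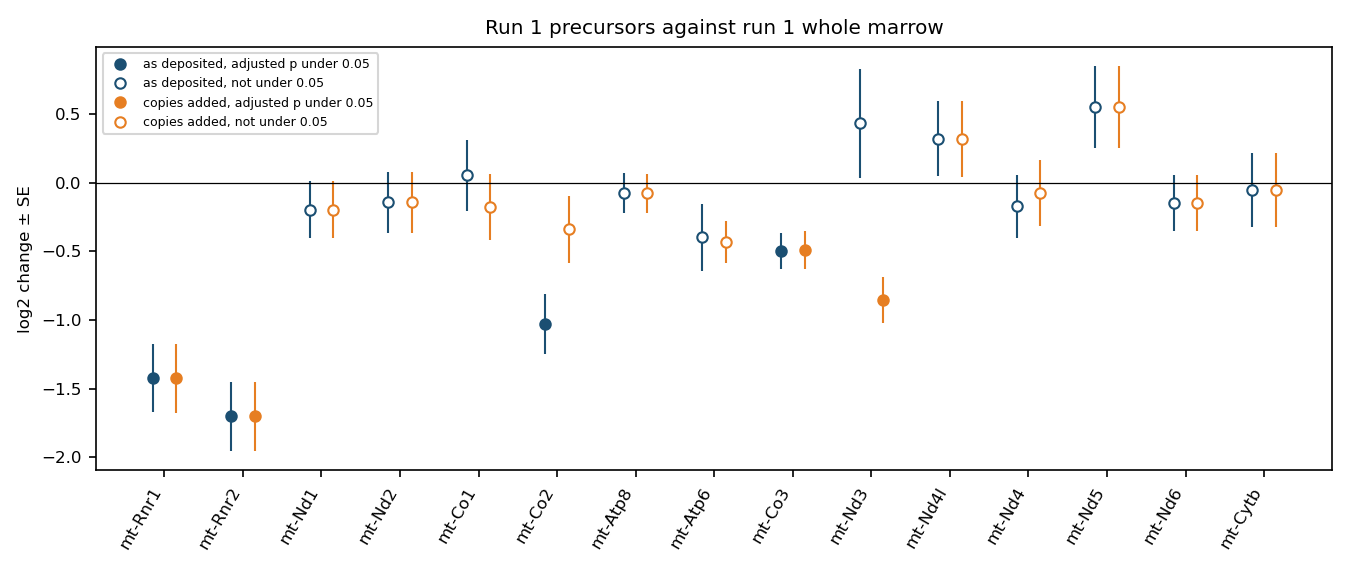
Change (log2 fold change ± SE) of rRNA and protein genes in run 1 precursors against run 1 whole marrow, as deposited and with nuclear copies added. Filled points have an edgeR adjusted p under 0.05. The rRNAs lie lowest, at -1.42 and -1.70, and the mt-Nd5 estimate is 0.55.

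Of 16 tRNAs tested, 3 were lower in precursors, a share no higher than the 23.3% of all genes called lower there. mt-Ti (isoleucine) fell by 2.17 ± 0.66 (edgeR adjusted p = 0.0322), mt-Ts1 by 0.86 ± 0.23 (edgeR adjusted p = 0.0204) and mt-Te by 0.61 ± 0.19 (edgeR adjusted p = 0.0345). mt-Ti averaged 0.205 CPM in precursors and 0.735 in marrow, and met the low-count filter through marrow. The filter thus favoured a fall of mt-Ti, and the share over all genes is not a like measure for it. mt-Ts1 held 65.7, 66.5, 64.0, 59.9 and 64.4 CPM in precursors and 75.0, 215 and 106 in marrow, where the ZA library was the highest. On the TPM scale mt-Ts1 was at 0.01 and mt-Te at 0.26, and without the marrow G-CSF library neither was called. Leaving out each of the 8 libraries in turn, the call of mt-Ti was lost every time (adjusted p from 0.0501 to 0.11), that of mt-Te 6 times and that of mt-Ts1 this 1 time.

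Nuclear genes that make, process and use mitochondrial RNA were called in few cases in marrow, at shares near or below those of all genes (4.93% higher and 6.91% lower with G-CSF, 3.17% and 4.55% with both agents). Of 73 tested nuclear subunits of the respiratory chain and ATP synthase, 2 rose and 0 fell with G-CSF, with a median of 0.13: Sdhc by 0.79 ± 0.20 (edgeR adjusted p = 0.0329), a membrane anchor of complex II, and Ndufs1 by 0.82 ± 0.22 (edgeR adjusted p = 0.0412), an iron-sulphur subunit of complex I. With ZA 0 of 73 were called and the median was 0.00, and in combined against ZA marrow 0 were called and the median was -0.27. In combined against G-CSF marrow 0 were called, 2 of 73 were positive and the median was -0.37, against -0.01 over all genes. Against untreated, combined marrow had 2 lower, Ndufb8 by 1.08 ± 0.25 (edgeR adjusted p = 0.0298) and Ndufb2 by 1.17 ± 0.30 (edgeR adjusted p = 0.0448), accessory subunits of complex I. Of 78 mitochondrial ribosomal protein genes, 2 rose with G-CSF, Mrps26 by 1.21 ± 0.20 (edgeR adjusted p = 0.00596) and Mrpl38 by 1.15 ± 0.26 (edgeR adjusted p = 0.0234), and the median was 0.19. For combined against G-CSF marrow 0 of these were called, 1 of 78 was positive and the median was -0.42.

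Of 22 genes for mitochondrial DNA maintenance and transcription, 1 rose with G-CSF. This was Polrmt, the mitochondrial RNA polymerase, at 1.17 ± 0.27 with G-CSF (edgeR adjusted p = 0.0247) and 1.26 ± 0.29 with ZA (edgeR adjusted p = 0.288). It was also called higher with both agents (edgeR adjusted p = 0.0418). Tfam, which packages the DNA and starts transcription, was at 0.21 ± 0.18 with G-CSF (edgeR adjusted p = 0.463) and -0.11 ± 0.20 with both (edgeR adjusted p = 0.78). The transcription factor Tfb2m was at -0.70 ± 0.29 with G-CSF (edgeR adjusted p = 0.145). Of 24 genes for RNA processing and stability, Rexo2, an oligoribonuclease, rose by 0.83 ± 0.18 with G-CSF (edgeR adjusted p = 0.0166), and Pnpt1, an RNA-degrading phosphorylase, fell by 0.98 ± 0.23 (edgeR adjusted p = 0.0269). Lrpprc, which stabilises mitochondrial mRNAs, was at 0.34 ± 0.31 (edgeR adjusted p = 0.494). With ZA 0 of either list were called.

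In precursors against marrow, where 20.4% of all genes were called higher and 23.3% lower, more members of these lists were called. Of the 73 nuclear subunits 30 were lower and 0 higher, with a median of -0.33 against 0.06 over all genes. Uqcrh, a small subunit of complex III, fell by 1.35 ± 0.11 (edgeR adjusted p = 0.000107) and Ndufb9, of complex I, by 1.05 ± 0.10 (edgeR adjusted p = 0.000172). The shares called in the other 3 lists were near or below those of all genes. Of the 78 ribosomal protein genes 16 were lower and 6 higher, Mrpl53 by -1.34 ± 0.13 (edgeR adjusted p = 0.000223). Of the 24 processing genes 6 were higher and 1 lower, among them Grsf1, an RNA granule protein, at 0.74 ± 0.13 (edgeR adjusted p = 0.00279), and Fastkd3 at 1.17 ± 0.24 (edgeR adjusted p = 0.00664). Of the 22 maintenance and transcription genes 6 were higher and 2 lower, with Pprc1, a transcriptional coactivator, at 1.05 ± 0.21 (edgeR adjusted p = 0.0053).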

How the data were processed

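RNA libraries were made with a New England BioLabs Ultra kit and sequenced on an Illumina HiSeq instrument, per the labels' protocols. The authors deposited estimated counts and TPM per gene from Salmon (mm10), per the submitters' processing notes, which also name DESeq2 1.16.1. The deposited counts equal TPM times a constant per gene and a constant per library (largest log2 deviation 0.01 in marrow), so they carry no separate length information. The annotation release, library selection and strand setting are not given in the sources used here. Gene IDs were matched to symbols for 99.1% of the IDs.

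Estimated counts were rounded and fitted with edgeR 4.0.16 (R 4.3.3) by robust quasi-likelihood, after filterByExpr (minimum count 10, minimum total 15) and TMM scaling. All 4 marrow groups shared a fit, as did the 4 precursor groups, where untreated and ZA hold 1 library each that is assumed to vary like the others. Alternatives were DESeq2 1.42.0, limma 3.58.1 on log2(TPM + 1), other scalings, no filter, a replicate block, and each library left out. Adding the nuclear copies' counts to their mitochondrial gene was also an alternative. It is reported first for the protein genes, a choice made after seeing the data, as were total counts as library size and the copies combined with another setting. Nuclear copies were found with blastn 2.17.0. Levels between genes are compared on TPM, and shares and ratios of counts between libraries. The edgeR script was tested on simulated data. Shares of counts were compared with exact permutation tests. The figures were drawn with matplotlib 3.10.9.

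All protein and rRNA genes were named, the 6 tRNAs with the highest CPM and any called, the 6 most abundant copies, and at most 4 nuclear genes per list by adjusted p. Gm13341 was added for its sequence. The members and lists were chosen with earlier results of these data known. Run 2 was left out, except as an alternative, because only 4 of the 9 libraries repeated in both runs were closest to their own run 1 library.

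Replicate numbers did not pair the libraries. Deviations from group means of same-numbered marrow libraries correlated at -0.04 to 0.11.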

Additional observations from a re-analysis of the deposited data

How the results depend on the processing

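Counts below are of the 13 protein genes called, as deposited unless copies are named. Adding the nuclear copies left 0 called higher with G-CSF and 0 in combined against untreated marrow. It turned mt-Co2 and mt-Atp6 to -0.55 and -0.15 with G-CSF and to -1.07 and -0.81 in combined against ZA, mt-Co2 to -0.14 in combined against untreated, and mt-Nd3 to -0.85 in precursors against marrow. DESeq2 called 7 higher with ZA, 4 higher in combined against G-CSF and 9 lower in combined against ZA. With no filter there were 9 higher with ZA, 3 higher and 1 lower in combined against G-CSF, 1 lower in combined against untreated, 9 lower in combined against ZA and 1 lower in the test of the difference. With only the groups compared there was 1 higher with G-CSF and 0 lower in combined against ZA. Limma on log2(TPM + 1) called 0 lower with G-CSF, 9 higher in combined against untreated, 1 lower in combined against ZA, and 10 higher and 0 lower in precursors. It turned mt-Nd2 and mt-Cytb to 0.26 and 0.018 with G-CSF. In combined against untreated it turned mt-Nd2 to 1.14, mt-Atp8 to 1.18, mt-Co3 to 1.17 and mt-Cytb to 0.96. In precursors it turned mt-Tl1 to 0.82, mt-Nd1 to 0.68, mt-Nd2 to 0.74, mt-Ts1 to 0.011, mt-Atp8 to 0.80, mt-Co3 to 0.37, mt-Nd4 to 0.71, mt-Nd6 to 0.72, mt-Te to 0.26 and mt-Cytb to 0.84. Total counts as library size gave 1 lower with G-CSF, 6 higher in combined against untreated, 0 lower in combined against ZA, and 4 higher and 0 lower in precursors. It turned mt-Nd2 and mt-Co3 to 0.57 and 0.59 in combined against untreated, and mt-Atp8 and mt-Co3 to 0.53 and 0.10 in precursors. With copies added, total counts gave 1 lower with G-CSF, 4 higher in combined against untreated, 0 lower in combined against ZA, and 4 higher and 0 lower in precursors, with mt-Nd2 at 0.57 in combined against untreated and mt-Atp8, mt-Co3 and mt-Nd4 at 0.53, 0.11 and 0.53 in precursors. The protein genes' total as library size gave 2 lower with G-CSF, 2 higher and 1 lower in combined against ZA, and 1 higher and 1 lower in precursors. With copies added it gave 2 lower with G-CSF, 0 in combined against ZA, and 1 higher and 0 lower in precursors, with mt-Nd2 and mt-Atp6 at 0.13 and 0.11 in combined against ZA. Run 2 libraries called 0 lower in precursors and turned mt-Rnr1 to 0.43, mt-Rnr2 to 0.52, mt-Ts1 to 0.45, mt-Co2 to 0.33, mt-Co3 to 0.21 and mt-Te to 0.25. Why these values moved was not tested, beyond the shift of all genes given with each scaling.

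Leaving out each library in turn gave 0 to 2 higher and 2 to 5 lower with G-CSF, 1 to 2 higher in combined against untreated, 0 to 5 lower in combined against ZA, and 0 to 1 higher and 1 to 4 lower in precursors. With copies added it gave 1 to 6 lower with G-CSF, 0 to 8 lower in combined against ZA and 0 to 1 lower in combined against untreated. mt-Co1 in precursors ran from -0.45, without the marrow G-CSF library, to 0.36. With the replicate block, whose numbers do not pair the libraries, there were 1 higher with G-CSF, 2 lower in combined against ZA and 0 lower in precursors against marrow. Groups held 2 or 3 libraries, and 8 of 22 tRNAs had the counts to be tested in marrow.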
